A study of Mus musculus with 8 samples.

Results

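The genes described here are the integrin alpha and beta chains, the laminin chains and the collagen chains of mouse liver duct cells, which carry the cells' contacts with the matrix around them. They were found by symbol alone, as protein-coding genes named as an Itga, Itgb, Lama, Lamb, Lamc or Col chain. The rule used no expression value, but the gene set was chosen with earlier results of these data known. The rule found 81 genes among the 47729 gene identifiers of the table: 18 integrin alpha chains, 8 integrin beta chains, 11 laminin chains and 44 collagen chains.

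The samples were EpCAM+ cells sorted by flow cytometry from healthy adult liver of male C57/B6 mice, and EpCAM marks the epithelium of the bile ducts. All groups carried the same labels for strain, sex and sort. The 2 fresh libraries were made from sorted cells at 0 h, before culture. The other 6 came from sorted cells embedded in Matrigel, a basement membrane gel made from a mouse tumour, in organoid medium: 2 at 12 h, 1 at 24 h, 1 titled 48h whose time label reads 24 h, and 2 from organoids at 6 days. The 24 h library and the library titled 48h were therefore kept apart, each as a group of 1, and the latter is called the 48h library below by its title. The labels do not say that replicates came from separate mice or cultures, so the p-values below take their error from differences among libraries that may be no more than technical. The comparisons asked which receptor and matrix chains the cells expressed before and after embedding.

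Integrins are receptors built from an alpha and a beta chain that bind the matrix outside the cell and link it to actin or, for the pair of Itga6 and Itgb4, to keratin filaments. Laminins are cross-shaped trimers of an alpha, a beta and a gamma chain, and with the type IV collagen network they form the basement membrane on which duct epithelium sits. Fibrillar collagens, by contrast, are products of mesenchymal cells such as stellate cells and portal fibroblasts. Matrigel supplies laminin and type IV collagen as protein, which RNA sequencing does not measure.

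Expression was given as RPKM, read number divided by gene length and by library size. Scaled back through gene lengths, the libraries held between 13833002 and 28468660 effective reads, so that 1 read in a gene of 2 kb was worth 0.0176 to 0.0361 RPKM. Summed RPKM lay between 357129 and 369701 in 7 libraries and reached 446034 in organoid replicate 1. That library also stood apart for the genes described here: 24 of the 29 chains tested were lower in it than in organoid replicate 2 and 3 were higher. The median ratio of replicate 2 to replicate 1 was 2.40 over the 24 tested chains above 0 in replicate 1, against 1.45 over all tested genes. The sum of the 10 duct markers was high in all groups, at 28414 to 32212 RPKM in fresh cells and 15515 to 22338 RPKM in culture. In each group 9 or 10 of the 10 were at 1 RPKM or more. Spp1 and Krt18 made up most of the sums. By the test used below, 1 marker rose and 1 fell in organoids against fresh cells. Krt7 rose from 103 and 59.5 RPKM to 810 and 409 RPKM. Cftr fell from 5.72 and 9.81 RPKM to 0.186 and 0.554 RPKM. In these bulk samples, fewer cells of a type and less RNA per cell cannot be told apart.

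Promoters were looked up for the chains in RefSeq sequences of GRCm38.p6, where 58 of the 81 genes had an entry, in 64 windows. In 34 of these the start site lay at or before the start of the annotated gene, and in the others inside it. All 64 were counted below. The 250 bases before the start of Itga5, which fell in organoids, of Itga2, the alpha chain with the largest positive log2 change at 12 h, and of Itgb1, the beta chain that pairs with both, are shown 5′ to 3′, because Itga5 had the largest change of the integrins tested in organoids against fresh cells, and the other two stand beside it as chains whose comparisons did not pass. Capitals mark the GC box GGGCGG on either strand (CCGCCC on the printed one), a match that describes letters only.
Itga5, chr15:103366792-103367041, minus strand: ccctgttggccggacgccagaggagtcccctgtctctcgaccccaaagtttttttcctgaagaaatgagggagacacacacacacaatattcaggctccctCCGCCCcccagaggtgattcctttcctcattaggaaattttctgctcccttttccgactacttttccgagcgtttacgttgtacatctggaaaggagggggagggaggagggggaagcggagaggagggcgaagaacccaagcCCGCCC
Itga2, chr13:114932101-114932350, minus strand: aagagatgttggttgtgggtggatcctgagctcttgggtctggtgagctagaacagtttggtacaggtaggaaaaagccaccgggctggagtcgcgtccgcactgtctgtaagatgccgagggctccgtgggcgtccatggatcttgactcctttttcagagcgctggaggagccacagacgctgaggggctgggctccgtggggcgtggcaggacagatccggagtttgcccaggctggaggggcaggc
Itgb1, chr8:128685404-128685653, plus strand: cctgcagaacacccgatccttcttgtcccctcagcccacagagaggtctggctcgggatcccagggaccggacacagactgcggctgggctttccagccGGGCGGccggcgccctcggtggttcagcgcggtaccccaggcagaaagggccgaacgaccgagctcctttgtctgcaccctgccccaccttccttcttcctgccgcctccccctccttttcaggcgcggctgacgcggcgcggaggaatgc
The Itga5 window held 2 GC boxes with a GC content of 55.6%, the Itga2 window none at 60.8%, and the Itgb1 window 1 at 68%. CpG dinucleotides numbered 11, 12 and 21 in the same order, against a median of 6 over all windows, whose median GC content was 52.4%. A GC box was found in 31 of the 64 windows of these genes (48.4%) and in 32.7% of 32851 windows of all genes. The AP-1 letters TGANTCA occurred in 2 windows (3.13%, against 6.75% of all) and the TEAD letters GGAATG in 7 (10.9%, against 12.6%), both read on either strand. None of the 3 windows shown held the AP-1 letters, and the Itgb1 window alone held the TEAD letters.

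Most of the family was silent or nearly so. In all 8 libraries 12 genes were listed at 0, among them Itga4, Itgad, Itgax, Col11a1 and Col6a4 to Col6a6. A further 34 were above 0 somewhere but under 1 RPKM everywhere, and 35 reached 1 RPKM in at least 1 library. The set at 1 RPKM or more in all 8 libraries held 18 genes, among them Itga2, Itga3, Itga5, Itga6, Itgav, Itgb1, Itgb4, Itgb5, Itgb6, Lama3, Lama5, Lamb1, Lamb3, Lamc1, Col4a1, Col4a2 and Col18a1. These are chains of epithelial matrix receptors and of the basement membrane, with no fibrillar collagen among them. By group mean, 28 genes were at 1 RPKM or more in fresh cells, 24 at 12 h, 24 at 24 h, 25 in the 48h library and 24 in organoids.

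**Figure D1:**
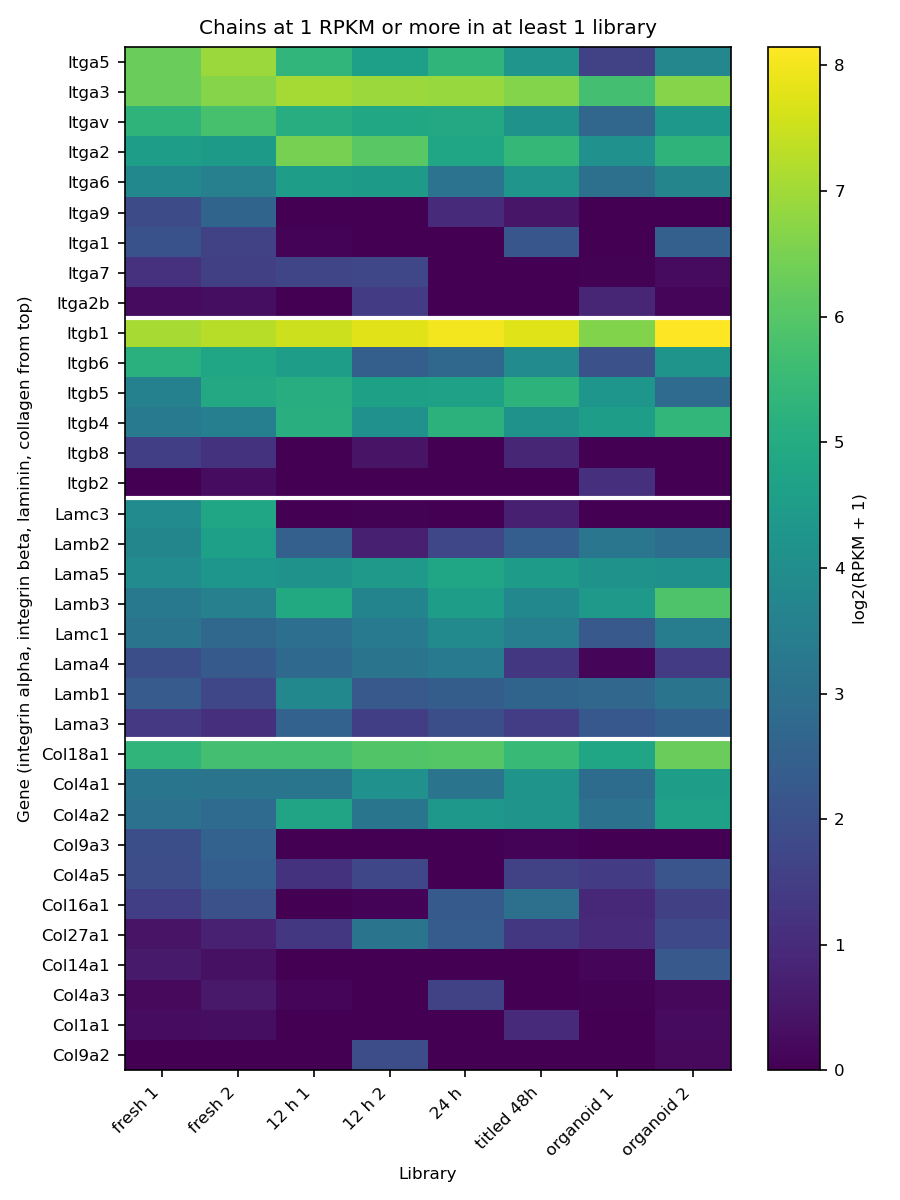
Heat map of log2(RPKM + 1) for 34 chains that reached 1 RPKM in at least 1 library, with 1 row per gene, 1 column per library and white lines between the 4 classes, ordered within a class by the mean in fresh cells. Itgb1 is bright in every column, Lamc3, Col9a3 and Itga9 are visible mainly in the 2 fresh columns, and organoid replicate 1 is darker than replicate 2 in most rows.

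Among alpha chains, Itga5 fell in organoids. Itga5, which pairs with Itgb1 as the classical fibronectin receptor (chr15:103344286-103366763, minus strand), was at 77.0 and 121 RPKM in the 2 fresh libraries and at 40.1 and 23.0 RPKM at 12 h. It was at 39.5 RPKM at 24 h, 18.2 RPKM in the 48h library, and 2.01 and 12.7 RPKM in organoids. Every culture library lay below both fresh ones, and organoids lay below every earlier culture library. The mean was 99.1 ± 31.2 RPKM in fresh cells, 31.5 ± 12.0 at 12 h and 7.35 ± 7.55 in organoids (SD, n = 2 each), which is 13.5-fold lower in organoids than in fresh cells.

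Itga5 fell in organoids against fresh cells by 3.93 on the log2(RPKM + 1) scale (SE 0.73, limma, adjusted p = 0.0258), and its change of −1.64 at 12 h did not pass (adjusted p = 0.21). The organoid call was lost without organoid replicate 1 (log2 change −2.83, adjusted p = 0.0664), without fresh replicate 1 (adjusted p = 0.194) and without fresh replicate 2 (adjusted p = 0.279), and with no filter on low values (adjusted p = 0.0991). The change kept its negative sign in each.

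Itga3, which with Itgb1 binds laminins containing the alpha3 or alpha5 chain (chr11:95044474-95076801, minus strand), was at 76.7 and 99.8 RPKM in fresh cells and at 131 and 121 RPKM at 12 h. It was at 117 RPKM at 24 h, 98.7 RPKM in the 48h library, and 51.1 and 99.8 RPKM in organoids. Fresh, 48h and organoid values overlapped, and the 12 h and 24 h libraries lay above both fresh ones. No comparison of Itga3 passed; in organoids against fresh cells its log2 change was −0.29 (SE 0.41, adjusted p = 0.677). By share of the summed alpha chains, Itga5 led both fresh libraries with 32.8% and 38.3%, in replicate 1 by only 77.0 against 76.7 RPKM of Itga3, and Itga3 led all 6 culture libraries with 41.3% to 61.5%.

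Itga2, the alpha chain of the collagen receptor with Itgb1 (chr13:114833081-114932100, minus strand), was at 22.6 and 20.6 RPKM in fresh cells and at 88.7 and 66.1 RPKM at 12 h. It was at 27.5 RPKM at 24 h, 41.8 RPKM in the 48h library, and 16.4 and 38.0 RPKM in organoids. The 12 h libraries lay above all the others, with a mean 3.58-fold that of fresh cells, and organoids overlapped fresh cells. The log2 change at 12 h was 1.78 (SE 0.46), with an adjusted p of 0.0656 in limma, which did not pass. It passed when either organoid library was left out (adjusted p = 0.0411 without replicate 1 and 0.0422 without replicate 2) and in a fit of the 4 fresh and 12 h libraries alone (adjusted p = 0.0448).

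Itgav, which forms receptors for the RGD motif of vitronectin, fibronectin and latent TGF-beta (chr2:83724397-83806916, plus strand), was at 37.9 and 54.3 RPKM in fresh cells and at 32.7 and 28.0 RPKM at 12 h. It was at 29.1 RPKM at 24 h, 17.2 RPKM in the 48h library, and 5.40 and 19.3 RPKM in organoids. All 6 culture libraries lay below both fresh ones, and the means differed 3.74-fold between fresh cells and organoids. The organoid change of −2.03 (SE 0.58) had an adjusted p of 0.0729 in limma. It passed with each library centred on its median (−2.16, adjusted p = 0.0348) and without organoid replicate 2 (−2.86, adjusted p = 0.0327), as well as in 2 other settings, and not without organoid replicate 1.

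Itga6, which binds laminin with Itgb1 or Itgb4 (chr2:71745616-71858416, plus strand), was at 13.1 and 10.6 RPKM in fresh cells, 22.3 and 20.9 RPKM at 12 h and 7.54 RPKM at 24 h. It was at 17.9 RPKM in the 48h library and at 7.04 and 12.1 RPKM in organoids. The 12 h libraries were the highest and no comparison passed (adjusted p = 0.253 at 12 h and 0.641 in organoids).

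Itga9, whose receptor with Itgb1 binds tenascin and osteopontin (chr9:118606690-118901003, plus strand), was at 2.68 and 5.20 RPKM in fresh cells, where 315 and 1139 effective reads fell on it. It was listed at 0 and 0.00598 RPKM at 12 h, at 1.02 RPKM at 24 h, at 0.416 RPKM in the 48h library, and at 0 and 0.00643 RPKM in organoids. A single read stood behind the value of 12 h replicate 2 and of organoid replicate 2, so no fold is given for those groups, while 150 and 70 reads were seen at 24 h and in the 48h library. Itga9 fell at 12 h and in organoids, by 2.25 on the log2(RPKM + 1) scale in both (SE 0.37, limma, adjusted p = 0.0304 and 0.0192). In these comparisons only fresh cells held it at 1 RPKM or more, so the filter on low values fixed the direction. Leaving out either 12 h library ended the first call (adjusted p = 0.0596 and 0.0594), leaving out either organoid library ended the second (0.0753 and 0.0536), and so did having no filter (0.0702 and 0.0586). Without fresh replicate 1 and without fresh replicate 2 the adjusted p was 0.302 and 0.389 at 12 h, and 0.151 and 0.242 in organoids. The start site of the Itga9 promoter window lies 105002 bases inside the annotated gene. That window is not shown but was counted among the 64.

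The remaining tested alpha chains were low. Itga1, a second collagen-binding chain, was at 3.11 and 2.01 RPKM in fresh cells, at 0.0479 and 0 RPKM at 12 h and at 0 at 24 h. It was at 3.56 RPKM in the 48h library and at 0 and 4.71 RPKM in organoids, so the 2 organoid libraries disagreed about its presence. Itga7, a laminin receptor chain best known from muscle, was at 1.24 and 1.93 RPKM in fresh cells, at 2.24 and 2.32 RPKM at 12 h, at 0 at 24 h and in the 48h library, and at 0.0360 and 0.173 RPKM in organoids. Its values in organoids did not overlap those of fresh or 12 h cells, with an adjusted p of 0.067 against fresh cells. That value passed when a 12 h library was left out (0.0463 without replicate 1, 0.0490 without replicate 2). Both genes were named after their values were seen. Of the 18 alpha chains, 10 were not tested, and the highest value among them was 1.65 RPKM, of the platelet chain Itga2b at 12 h.

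Itgb1, the common partner of most alpha chains (chr8:128685654-128733200, plus strand), was the most abundant chain of any class in each library. It was at 135 and 153 RPKM in fresh cells, 185 and 217 RPKM at 12 h, 257 RPKM at 24 h and 216 RPKM in the 48h library. The organoids were at 95.6 and 282 RPKM, the lowest and the highest of all 8 libraries. Itgb1 took between 67.5% and 82.8% of the summed beta chains, and none of its comparisons passed (adjusted p = 0.449 to 0.838).

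Itgb4, the hemidesmosome chain that pairs with Itga6 only (chr11:115974709-116008412, plus strand), was at 9.39 and 10.4 RPKM in fresh cells and at 34.0 and 16.3 RPKM at 12 h. It was at 36.3 RPKM at 24 h, 17.4 RPKM in the 48h library, and 22.5 and 41.1 RPKM in organoids. Every culture library lay above both fresh ones, and the mean was 3.21-fold higher in organoids. The log2 change was 1.53 in organoids (SE 0.49, adjusted p = 0.0939) and 1.31 over all culture groups (SE 0.40, adjusted p = 0.0782), neither of which passed in limma.

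Itgb6, the epithelial partner of Itgav that activates TGF-beta (chr2:60598292-60722643, minus strand), was at 35.2 and 27.5 RPKM in fresh cells and at 22.9 and 4.48 RPKM at 12 h. It was at 5.70 RPKM at 24 h, 14.3 RPKM in the 48h library, and 3.03 and 17.6 RPKM in organoids. All culture values lay below the fresh ones, and the spread within the 12 h and organoid pairs was about as wide as the means, so the organoid change of −1.89 (SE 0.91) did not pass (adjusted p = 0.223).

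Itgb5, a vitronectin receptor chain with Itgav (chr16:33829665-33949338, plus strand), was at 10.9 and 29.5 RPKM in fresh cells, 32.4 and 23.9 RPKM at 12 h, 24.5 RPKM at 24 h, 37.5 RPKM in the 48h library, and 18.3 and 6.27 RPKM in organoids. Fresh values spanned most of the culture range and no comparison passed. Itgb5 was 1 of the 3 tested chains that were higher in organoid replicate 1 than in replicate 2.

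Itgb8, a further TGF-beta-activating partner of Itgav (chr12:119158022-119238802, minus strand), was the least abundant beta chain tested, at 1.83 and 1.29 RPKM in fresh cells. It was listed at 0 and 0.349 RPKM at 12 h, at 0 at 24 h, at 0.818 RPKM in the 48h library and at 0 in both organoid libraries. The 308 and 406 reads of fresh cells put it at least 94.3-fold lower in organoids, taking 3 reads per library as the floor, an allowance for counting error only. Itgb8 fell in organoids by 1.35 (SE 0.31, limma, adjusted p = 0.0451) and over all culture groups by 1.08 (SE 0.26, adjusted p = 0.0421), both on the log2(RPKM + 1) scale. Because only the fresh libraries took it past the filter on low values, it had to be lower in culture to be tested. The organoid call was lost under the replicate block (adjusted p = 0.0603), median centring (0.0554) and no filter (0.0654), and without organoid replicate 1 (0.106) or replicate 2 (0.084). The call over all culture groups was lost without organoid replicate 1 (0.0514), organoid replicate 2 (0.0536) or the 24 h library (0.0562), and with a pseudocount of 0.1 (0.0523), no filter (0.0533) or quantile normalization (0.055). Of the other beta chains, Itgb2, the leukocyte chain (chr10:77530252-77565708, plus strand), was at 0.219 RPKM in fresh replicate 2, at 1.18 RPKM in organoid replicate 1 and at 0 in the remaining 6 libraries.

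**Figure D2:**
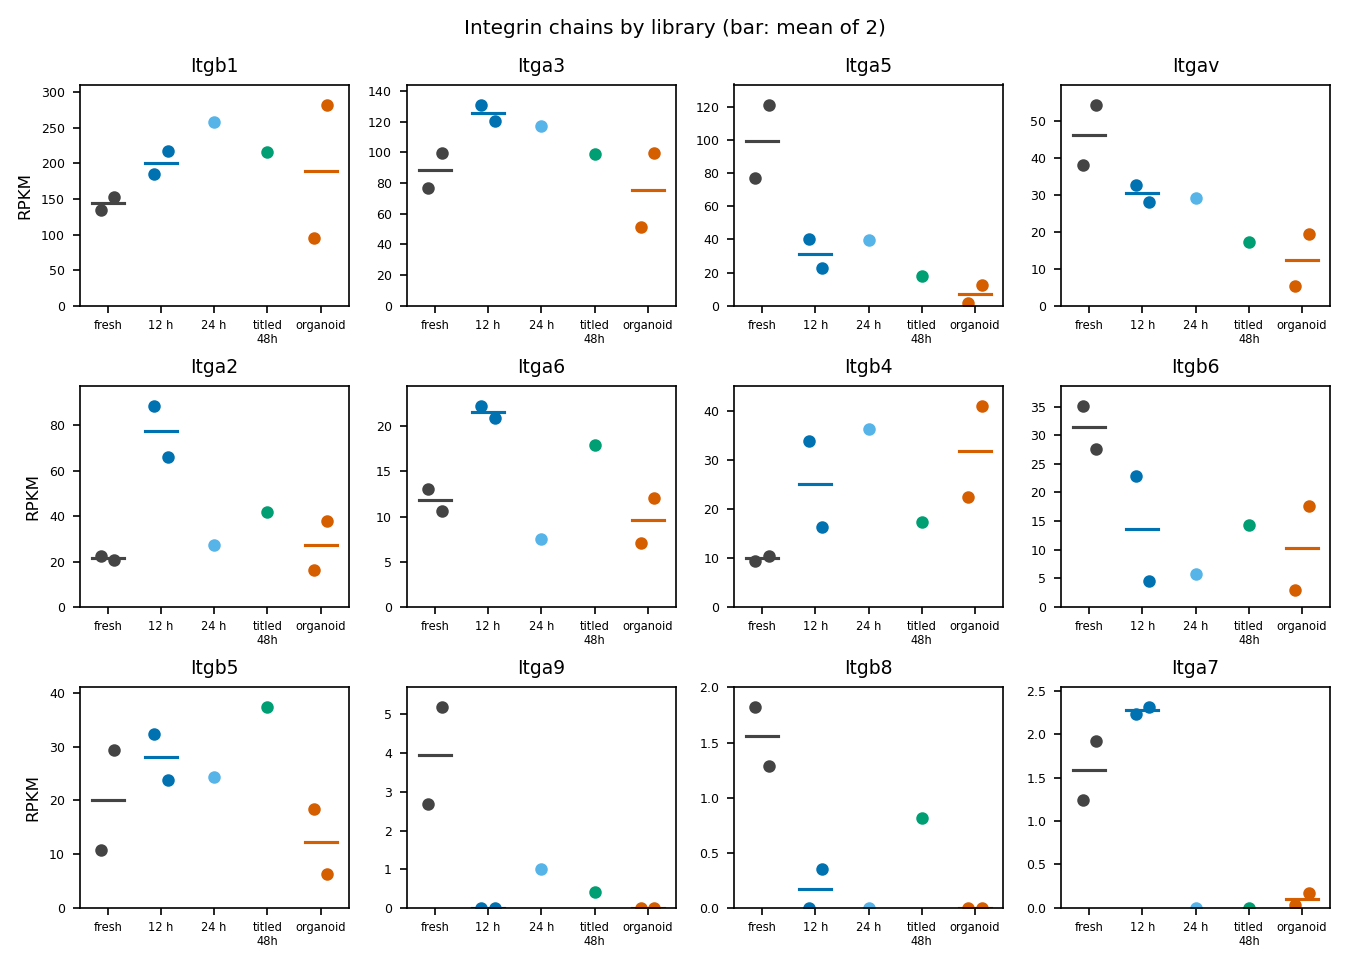
RPKM of 12 integrin chains in each library (points), by group on the horizontal axis, with a bar at the mean where a group has 2 libraries; each panel has its own vertical axis from 0. Itga5 lies between 77.0 and 121 RPKM in fresh cells and between 2.01 and 12.7 RPKM in organoids, Itga2 is highest at 12 h, Itgb4 is above its fresh values in all culture libraries, and the organoid pair is spread widely for Itgb1.

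The 8 leukocyte chains reached at most 0.256 RPKM in fresh cells, for Itgb7, and 1.18 RPKM in culture, for Itgb2. The defining leukocyte marker Ptprc was at 0.0143 RPKM in fresh replicate 1 and at 0 in the other 7 libraries. Other genes of the 10 immune markers were present: the list summed to 20.9 and 29.3 RPKM in fresh cells, 8.34 to 17.7 RPKM at 12 h, 4.88 RPKM at 24 h, 27.2 RPKM in the 48h library and 11.4 to 25.8 RPKM in organoids. Cd68, a lysosomal gene of macrophages, had means of 14.7 RPKM in fresh cells and 14.6 RPKM in organoids, and Lyz2 was at 2.07 and 1.89 RPKM and 1.66 and 2.62 RPKM. Csf1r, a macrophage receptor, was at 5.21 and 10.9 RPKM in fresh cells and fell to 0.0977 and 0.443 RPKM at 12 h (limma, adjusted p = 0.0308). The part of such cells in the integrin values was not tested. Pf4, a platelet gene, was seen at a mean of 8.63 RPKM in fresh cells and 14.8 RPKM in organoids, while Itga2b had means of 0.200 and 0.460 RPKM.

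Among laminins, Lamb3, a beta chain of epithelial anchoring laminin (chr1:193207699-193343878, plus strand), was at 8.82 and 10.8 RPKM in fresh cells and 29.8 and 11.8 RPKM at 12 h. It was at 22.5 RPKM at 24 h, 13.1 RPKM in the 48h library, and 19.8 and 58.9 RPKM in organoids, where it was the leading laminin of replicate 2 with 41.8% of the class. Every culture value exceeded both fresh values, and the organoid change of 1.72 (SE 0.64) did not pass (adjusted p = 0.133). Lama3, an alpha chain that pairs with it, had means of 1.34 ± 0.292 RPKM in fresh cells, 3.40 ± 2.20 at 12 h and 4.26 ± 0.775 in organoids (SD, n = 2), and likewise did not pass (adjusted p = 0.187 in organoids).

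Lama5, the alpha chain of the main laminin of mature epithelial basement membrane (chr2:180176373-180225859, minus strand), was at 14.1 and 18.4 RPKM in fresh cells, 16.8 and 20.4 RPKM at 12 h, 26.4 RPKM at 24 h, 21.3 RPKM in the 48h library, and 17.3 and 16.2 RPKM in organoids. The groups overlapped, with a log2 change in organoids of 0.05 (SE 0.35, adjusted p = 0.939). Lamc1, the gamma chain of most laminins (chr1:153218922-153332786, minus strand), was at 7.84 and 5.66 RPKM in fresh cells and between 3.80 and 13.8 RPKM in culture. Neither chain differed beyond its spread, which does not show that their levels were equal. Lamb1, the usual beta partner, was at 4.06 and 2.35 RPKM in fresh cells and between 3.86 and 13.0 RPKM in culture, also without passing.

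Lamb2, a beta chain of vascular, glomerular and epithelial basement membranes (chr9:108479736-108490530, plus strand), was at 12.2 and 23.5 RPKM in fresh cells and at 4.70 and 0.628 RPKM at 12 h. It was at 2.32 RPKM at 24 h, 4.40 RPKM in the 48h library, and 8.23 and 6.66 RPKM in organoids. All culture values were below the fresh ones, and organoid values lay above the other culture values. The change of −2.56 at 12 h (SE 0.69) had an adjusted p of 0.0723 and that over all culture groups, −1.96 (SE 0.57), one of 0.0671. The latter passed without either 12 h library (0.0241 without replicate 1, 0.0406 without replicate 2) and with median centring (0.0487).

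Lamc3, a gamma chain found in rarer laminins (chr2:31887291-31946539, plus strand), showed the largest change of the 29 tested chains in each comparison with fresh cells. It was at 14.2 and 27.3 RPKM in fresh cells, from 1315 and 4735 effective reads. In culture it was listed at 0 and 0.0302 RPKM at 12 h, 0.00855 RPKM at 24 h, 0.652 RPKM in the 48h library, and 0 and 0.00812 RPKM in organoids, from 0, 4, 1, 87, 0 and 1 reads in that order. The fresh and culture libraries did not overlap. Lamc3 fell in both, with a log2(RPKM + 1) change of −4.35 at 12 h (SE 0.43, limma, adjusted p = 0.0189) and −4.37 in organoids (SE 0.43, adjusted p = 0.00716). Only the fresh libraries took Lamc3 past the filter on low values, so it had to be lower in culture to be tested at all. The organoid call was lost without organoid replicate 1 (adjusted p = 0.0556), and the 12 h call held without either 12 h library.

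Lama4, an alpha chain typical of blood vessel basement membrane, had a course of its own, at 2.90 and 3.95 RPKM in fresh cells, 5.83 and 7.79 RPKM at 12 h and 9.55 RPKM at 24 h. It was at 1.48 RPKM in the 48h library and at 0.108 and 1.69 RPKM in organoids. The organoid values lay below both fresh and 12 h values, with an adjusted p of 0.104 for organoids against 12 h. Rgs5, a gene of vessel mural cells and stellate cells, followed the same order: its means were 64.0 RPKM in fresh cells, 284 RPKM at 12 h, 438 RPKM at 24 h, 34.9 RPKM in the 48h library and 1.07 RPKM in organoids. The 14 mesenchymal markers, Rgs5 included, summed to 66.8 and 83.8 RPKM in fresh cells, 183.6 and 389 RPKM at 12 h and 438 RPKM at 24 h. They summed to 36.0 RPKM in the 48h library and 0.707 and 2.68 RPKM in organoids. Rgs5 made up nearly all of the sums at 12 h, at 24 h and in the 48h library, so these do not describe the list. At 12 h 8 of the 14 markers were at 0, and at 24 h 11 were. In fresh cells Dcn, of fibroblasts, was at 8.12 and 2.58 RPKM and Acta2, of smooth muscle and myofibroblasts, at 3.86 and 1.03 RPKM. Both were at lower values in organoids, and Acta2 was already at 0.0536 and 0.0775 RPKM at 12 h. Pdgfrb was at 0.0128 RPKM in fresh replicate 2 and at 0 in the other 7 libraries. Whether such cells had a part in the Lama4 values was not tested. Lama4 and Rgs5 were picked out after their values were seen. Lama1 and Lama2, further alpha chains, did not exceed 0.026 RPKM in any library.

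Of the 44 collagen chains, Col18a1, Col4a1 and Col4a2 were at 1 RPKM or more in all 8 libraries. Col18a1, a heparan sulfate collagen of epithelial basement membranes (chr10:77052178-77166548, minus strand), was at 39.3 and 51.3 RPKM in fresh cells, 51.2 and 60.6 RPKM at 12 h, 62.8 RPKM at 24 h and 44.9 RPKM in the 48h library. Organoids held 26.6 and 77.0 RPKM, below and above every other library. Col18a1 led the collagens in all 8 libraries with 47.6% to 62.5% of their sum, and its organoid change was 0.02 (SE 0.52, adjusted p = 0.987).

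The type IV chains Col4a1 (chr8:11198423-11312826, minus strand) and Col4a2 (chr8:11312805-11449287, plus strand) lie head to head and share 22 exonic bases on opposite strands. Col4a1 was at 7.98 and 7.82 RPKM in fresh cells, 8.06 and 16.4 RPKM at 12 h, 7.78 RPKM at 24 h, 17.7 RPKM in the 48h library, and 6.43 and 22.1 RPKM in organoids. Col4a2 was at 7.15 and 6.21 RPKM in fresh cells, 26.3 and 8.06 RPKM at 12 h, 19.5 RPKM at 24 h, 17.6 RPKM in the 48h library, and 7.22 and 24.2 RPKM in organoids. Col4a2 lay above its fresh values in all 6 culture libraries and Col4a1 overlapped its own. The 2 chains were within a few RPKM of each other in fresh, 48h and organoid libraries and parted at 12 h, in opposite directions in the 2 replicates, and at 24 h. Neither passed, with log2 changes in organoids of 0.56 (SE 0.63) and 0.91 (SE 0.72).

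Col4a5, a chain of the alternative type IV networks (chrX:141475385-141689234, plus strand), was at 2.80 and 4.45 RPKM in fresh cells, 1.29 and 2.34 RPKM at 12 h, 0 at 24 h, 2.02 RPKM in the 48h library, and 1.66 and 3.44 RPKM in organoids, and did not pass. Col9a3, a chain of the cartilage collagen type IX (chr2:180597790-180622189, plus strand), was at 2.84 and 4.89 RPKM in fresh cells, from 167 and 536 reads. It was listed at 0 in 5 culture libraries and at 0.0474 RPKM, from 4 reads, in the 48h library. With 3 reads per library as the floor it was at least 106-fold lower at 12 h and at least 81.5-fold lower in organoids.

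Col9a3 fell at 12 h and in organoids by 2.25 on the log2(RPKM + 1) scale (SE 0.33, limma, adjusted p = 0.0264 and 0.0156). Like Lamc3, it passed the filter on low values only through the fresh libraries, which fixed the direction. The 12 h call was lost without either 12 h library (0.0545 without replicate 1, 0.0534 without replicate 2) and the organoid call without organoid replicate 1 (0.0658). Its partner Col9a1 was at 0 in all libraries and Col9a2 reached 1 RPKM only at 12 h replicate 2, with 2.82 RPKM, so no library held more than 1 type IX chain at 1 RPKM or more.

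Most collagens known from scar and stroma stayed under 1 RPKM. Apart from Col27a1, the 10 fibrillar collagen chains reached at most 0.499 RPKM in fresh cells, for Col11a2, and at most 1.01 RPKM in culture, for Col1a1 in the 48h library. Col27a1, a fibrillar chain with a wider range of tissues, was at 0.337 and 0.661 RPKM in fresh cells and between 0.988 and 7.82 RPKM in culture, above the fresh values in all 6 libraries, without passing (adjusted p = 0.174 at 12 h). The 6 type VI chains reached at most 0.761 RPKM, for Col6a1. The transmembrane collagens reached 0.827 RPKM in fresh cells, for Col23a1, and 0.0251 RPKM in culture.

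Col16a1, a fibril-associated chain, was at 1.85 and 3.09 RPKM in fresh cells, 0 and 0.0477 RPKM at 12 h, 3.99 RPKM at 24 h, 6.98 RPKM in the 48h library, and 0.900 and 1.88 RPKM in organoids. Its 12 h libraries were below all the others (log2 change −1.74, SE 0.44, adjusted p = 0.0629), and it passed there with median centring (−2.07, 0.0337), a pseudocount of 0.1 (0.0318) and in the fit of fresh and 12 h libraries alone (0.0490). Col14a1, another fibril-associated chain (chr15:55307750-55520803, plus strand), was at 0.514 and 0.280 RPKM in fresh cells and at 3.82 RPKM in organoid replicate 2 alone, against 0.0825 RPKM in organoid replicate 1. It reached 1 RPKM in that library only and was not tested.

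**Figure D3:**
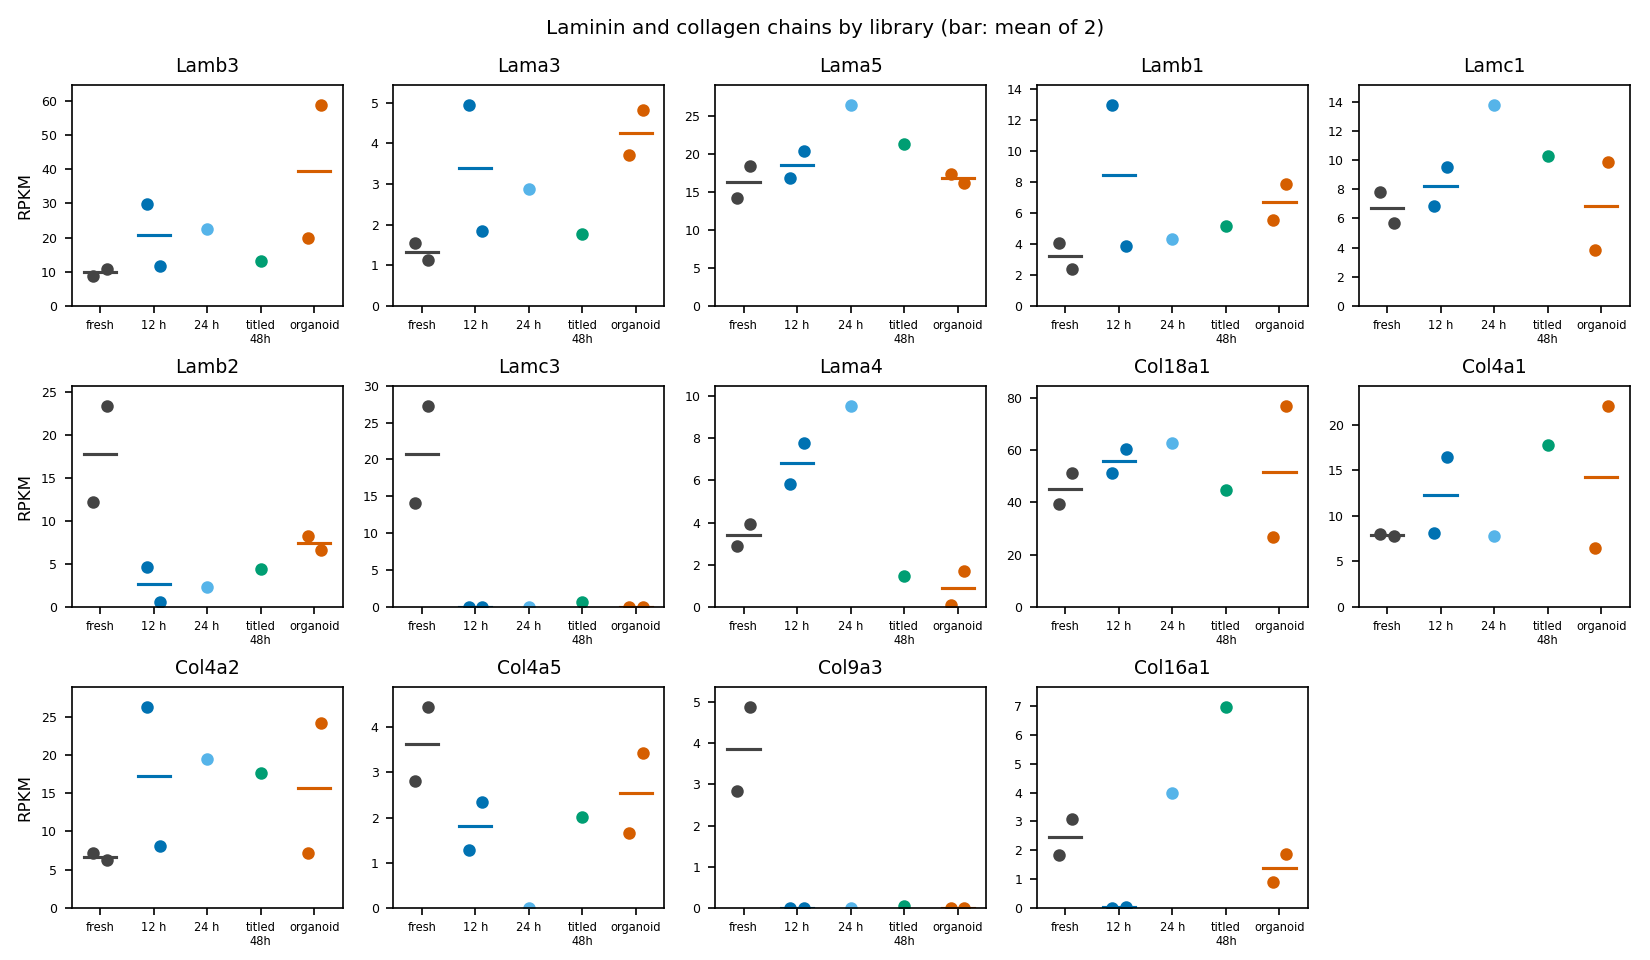
RPKM of 14 laminin and collagen chains in each library (points), by group on the horizontal axis, with a bar at the mean where a group has 2 libraries; each panel has its own vertical axis from 0. Lamc3 and Col9a3 lie at or near 0 in every culture library, Lamb2 lies below its fresh values and Lamb3 above its fresh values in all 6, and Lama5 keeps within 14.1 to 26.4 RPKM.

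Read as assemblies, the scarcest chain sets how much of a known receptor or trimer the RNA could supply, a description of RNA and not of protein, in which Itgb1 is shared by many pairs. The lowest chain of the Itga3 and Itgb1 receptor was at 51.1 to 131 RPKM over the 8 libraries, the highest of any integrin pair in all 6 culture libraries. The pair of Itga5 and Itgb1, limited by Itga5, had means of 99.1 RPKM in fresh cells and 7.35 RPKM in organoids. The hemidesmosome pair of Itga6 and Itgb4 was limited by Itgb4 in fresh cells, at a mean of 9.91 RPKM, and by Itga6 in organoids, at 9.57 RPKM. The Itgav and Itgb6 pair had means of 31.4 RPKM in fresh cells and 10.3 RPKM in organoids.

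Among laminins, the trimer of Lama5, Lamb1 and Lamc1 had its lowest chain at 4.06 and 2.35 RPKM in the fresh libraries, Lamb1 in both. In organoids that chain was Lamc1 at 3.80 RPKM in replicate 1 and Lamb1 at 7.85 RPKM in replicate 2. The trimer with Lamb2 in place of Lamb1 had its lowest chain at 7.84 and 5.66 RPKM in fresh cells and 3.80 and 6.66 RPKM in organoids. For the trimer of Lama5, Lamb2 and Lamc3 the values were 12.2 and 18.4 RPKM in fresh cells, and 0 and 0.00812 RPKM in organoids. For type IV collagen of Col4a1 and Col4a2 they were 7.15 and 6.21 RPKM in fresh cells and 6.43 and 22.1 RPKM in organoids.

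**Figure D4:**
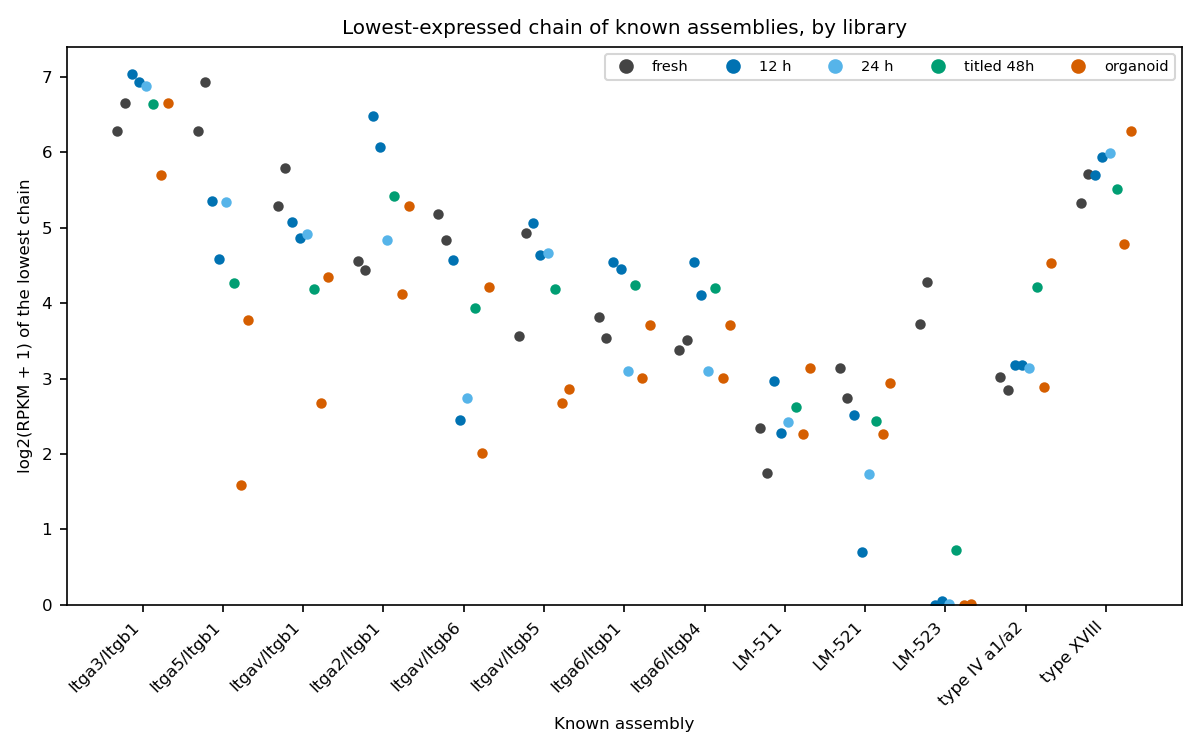
The lowest-expressed chain of 13 known integrin pairs, laminin trimers and collagens, as log2(RPKM + 1) on the vertical axis, with 1 point per library coloured by group; laminins carry the numbers of their alpha, beta and gamma chains in the labels. The Itga3 and Itgb1 pair stays above 51 RPKM in all libraries, and the trimer with Lamc3 is present in fresh cells and near 0 in culture.

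For the test over all genes, 12900 genes at 1 RPKM or more in at least 2 libraries were fitted, among them 29 of the 81 chains: 8 alpha, 5 beta, 9 laminin and 7 collagen chains. At 12 h against fresh cells 3 chains fell (Lamc3, Col9a3 and Itga9) and 0 rose, where 3.72% of all genes tested fell and 3.09% rose. In organoids against fresh cells 5 fell, the same 3 with Itga5 and Itgb8, and 0 rose, where 4.94% of all genes fell and 5.15% rose. Over the 4 culture groups against fresh cells 4 fell (log2 changes of −4.18 for Lamc3, −2.23 for Col9a3, −1.88 for Itga9 and −1.08 for Itgb8) and 0 rose, where 6.71% of all genes fell and 7.08% rose. These comparisons share the fresh libraries, so their calls are not separate evidence.

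In organoids against 12 h, 0 chains passed in limma, where 0.62% of all genes fell and 1.38% rose at the same adjusted threshold. At an unadjusted p under 0.05 in limma there were 7 chains, 6 lower and 1 higher. Against fresh cells, 3 chains were higher and 7 lower at an unadjusted p under 0.05 in limma at 12 h. In organoids 2 were higher and 9 lower, and over all culture groups 1 and 10. The share of all genes at the unadjusted threshold is not given here, so these counts have no background. Lamc3, Col9a3 and Itgb8 passed the filter on low values only through the fresh libraries, so they had to be lower in culture to be tested at all, and their count supports no direction of the family. The same holds for Itga9 in its comparisons of 12 h and organoid cells, since 1.02 RPKM at 24 h was its only culture value of 1 RPKM or more. The other 52 chains were too low to test. The median log2 change of the 29 chains was 0.31 at 12 h and −0.41 in organoids against fresh cells, beside 0.24 and 0.17 over all genes tested. It was 0.12 over all culture groups beside 0.20, and −0.18 in organoids against 12 h beside −0.09. As for the whole table, centring each library on its median took off 0.33 at 12 h, 0.14 in organoids and 0.25 over all culture groups, and −0.19 between organoids and 12 h. It turned 398 rising and 480 falling genes at 12 h into 322 and 806, 664 and 637 in organoids into 548 and 825, 913 and 865 over all culture groups into 681 and 1285, and 178 and 80 between organoids and 12 h into 261 and 75.

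Without fresh replicate 1, and equally without fresh replicate 2, 0 genes of the whole table passed in limma in any comparison with fresh cells. At an unadjusted p under 0.05 there were then 4 and 2 chains at 12 h, 4 and 2 in organoids, and 4 and 1 over all culture groups. The tests of Lamc3, Col9a3 and Itgb8 could not be made in those fits, because the genes then reached 1 RPKM in fewer than 2 libraries. For the fits that follow, the share of all genes passing is not given. Their counts of chains thus describe the setting and not the family. Without organoid replicate 1 the count in organoids was 0, with 11 at an unadjusted p under 0.05, and without either 12 h library the count at 12 h was 1. Without either organoid library the count at 12 h was 5, of which 1, Itga2, was higher. Over all culture groups the count was 7 without 12 h replicate 1, with 1 of the 7, Col27a1, higher (log2 change 1.48, adjusted p = 0.0432), and 5 without organoid replicate 1, with Itga2 higher (0.96, adjusted p = 0.0469).

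**Figure D5:**
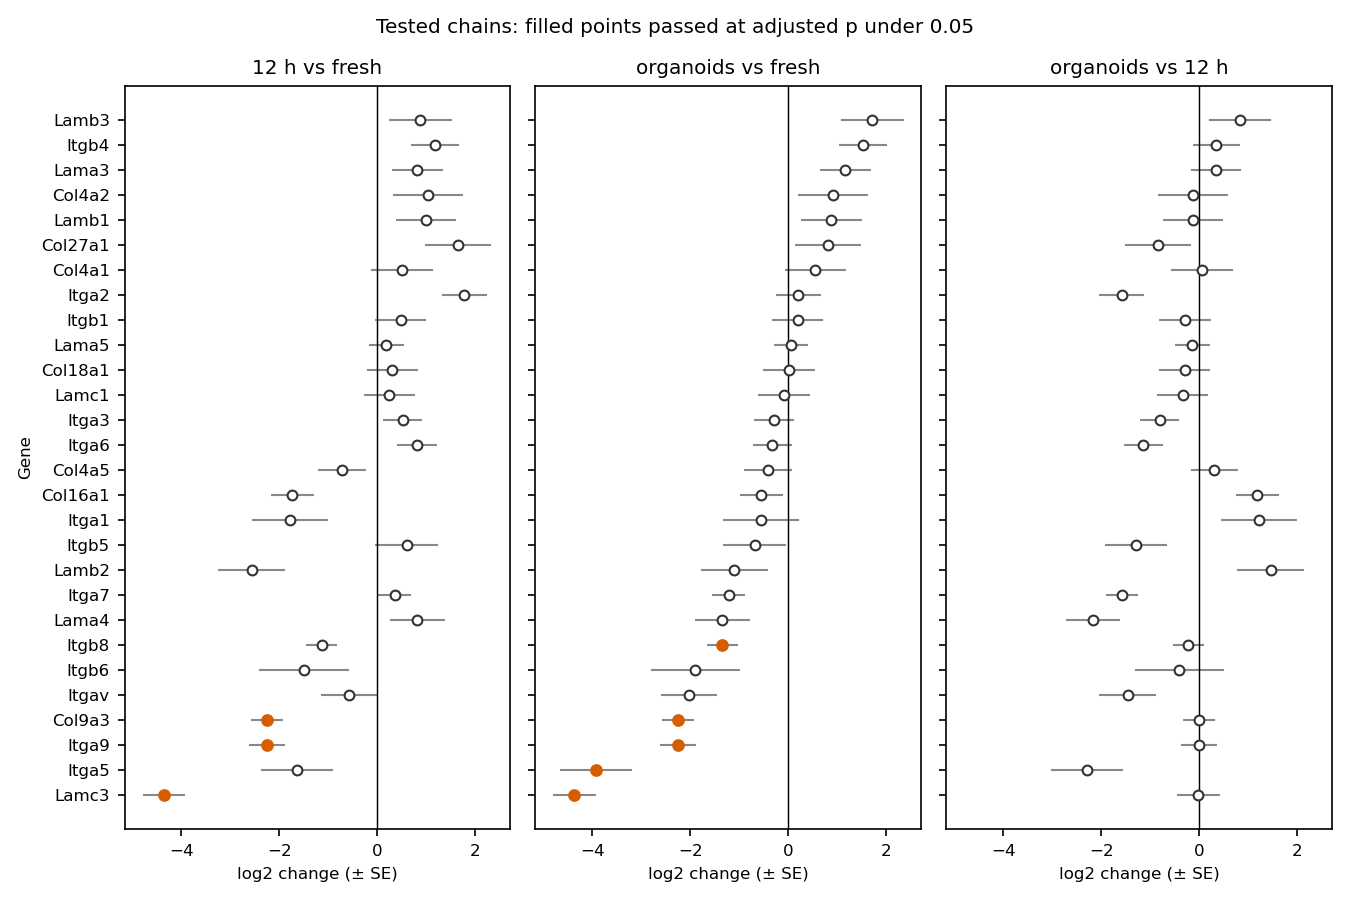
Change in log2(RPKM + 1) with its standard error for 28 tested chains, in 12 h against fresh cells, organoids against fresh cells and organoids against 12 h, ordered by the organoid change; filled points passed at an adjusted p under 0.05. The 3 filled points at 12 h and 5 in organoids all lie left of 0, and organoids against 12 h has none. Of these, Lamc3, Col9a3, Itga9 and Itgb8 reached 1 RPKM only in the fresh libraries of the groups compared. The filter on low values thus fixed their side.

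Summed markers of mesothelial, hepatocyte and endothelial cells were lower in every culture group than in fresh cells, and the other lists differed. The mesenchymal sum was higher at 12 h and 24 h, where Rgs5 made up nearly all of it and Acta2 was lower than in fresh cells. The platelet sum was 6.28 to 12.0 RPKM in fresh cells and 13.4 to 19.4 RPKM in organoids. It was mostly Pf4, at means of 8.63 and 14.8 RPKM, with 2 and 3 of the 5 markers at 0. Neither sum describes its list. The immune sum overlapped fresh cells in the 48h library and in organoids. The summed level of the 6 mesothelial markers was 25.8 and 35.9 RPKM in fresh cells, 0 and 0.0138 RPKM at 12 h, 0.0240 RPKM at 24 h, 5.78 RPKM in the 48h library, and 0.214 to 0.233 RPKM in organoids. Fresh cells had all 6 above 0, led by Gpm6a at a mean of 22.6 RPKM, and 12 h cells had 5 of 6 at 0. Lamc3 and Col9a3 were also highest in fresh cells and, within culture, in the 48h library, where Col9a3 rested on 4 reads. They did not share the order of the remaining culture libraries. The 8 hepatocyte markers summed to 935 to 963 RPKM in fresh cells, 41.0 to 53.3 RPKM at 12 h and 49.9 RPKM at 24 h. They summed to 165 RPKM in the 48h library, again the highest within culture, and 7.08 to 12.7 RPKM in organoids. The 10 endothelial markers summed to 3.29 to 3.66 RPKM in fresh cells and at most 2.16 RPKM in culture. The part of such cells in the falls of Lamc3, Col9a3, Itga9, Itga5 and Itgb8 was not tested.

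The ligands and linkers these chains work with were taken from 5 lists, and each count stands beside the shares of all genes given above. Of 9 tested basement membrane linkers, 1 rose and 2 fell in organoids, and 1 rose and 1 fell at 12 h. Fbln2, a fibulin that bridges laminin and other matrix proteins, rose from 9.63 and 15.7 RPKM in fresh cells to 63.3 and 111 RPKM at 12 h and 140.5 and 183 RPKM in organoids (log2 change 3.60, SE 0.42, adjusted p = 0.01). Smoc1, a calcium-binding basement membrane protein, fell from 20.9 and 31.0 RPKM to 0 and 1.05 RPKM in organoids (adjusted p = 0.0117), and Sparc, a collagen-binding protein, from 23.8 and 22.8 RPKM to 0.0859 and 0.911 RPKM (adjusted p = 0.0132). Nid1, which links laminin to type IV collagen, did not pass, nor did Agrn and Hspg2, and Nid2 was not tested. Nid1 was at 0.173 and 0.139 RPKM in fresh cells, 3.51 and 4.60 RPKM at 12 h and 0 at 24 h. It was at 5.73 RPKM in the 48h library and 0 and 2.50 RPKM in organoids. Its log2 change at 12 h was 2.12 (SE 0.62, limma, adjusted p = 0.0875). Agrn was at 9.14 and 12.5 RPKM in fresh cells and 8.22 and 40.8 RPKM in organoids. Hspg2, the perlecan core protein, was at 3.53 and 3.26 RPKM in fresh cells and 3.54 and 2.20 RPKM in organoids.

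Other integrin ligands had 2 rising and 5 falling of 11 tested in organoids, and 1 and 4 at 12 h. Fn1, fibronectin, the ligand of Itga5, was at 11.5 and 16.2 RPKM in fresh cells, 9.49 and 18.7 RPKM at 12 h, 70.8 RPKM at 24 h, 11.6 RPKM in the 48h library, and 46.2 and 101 RPKM in organoids. It rose in organoids (log2 change 2.24, SE 0.52, limma, adjusted p = 0.0446) while its receptor chain Itga5 fell there. Vtn, vitronectin, which hepatocytes secrete, fell from 85.5 and 108 RPKM to 0.0356 and 0.0731 RPKM in organoids (adjusted p = 0.0156), a fall seen together with that of the hepatocyte markers. Icam1, a ligand of leukocyte integrins, fell from 902 and 1273 RPKM to 61.1 and 131 RPKM (adjusted p = 0.0117), Thbs1, thrombospondin, from 93.3 and 123 RPKM to 9.81 and 28.2 RPKM (adjusted p = 0.0317), and Ccn1, a matricellular YAP target, from 661 and 1568 RPKM to 19.6 and 157 RPKM (adjusted p = 0.0479).

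Of 21 tested enzymes and chaperones of collagen maturation, 3 rose and 1 fell in organoids, and 2 rose and 1 fell at 12 h. Colgalt1, which adds galactose to collagen lysines, rose from 20.7 and 21.4 RPKM to 69.5 and 149 RPKM in organoids (adjusted p = 0.0273), Ppib, a prolyl isomerase, from 31.3 and 27.2 RPKM to 95.7 and 109 RPKM (adjusted p = 0.0211), and Crtap, its partner in prolyl hydroxylation, from 5.88 and 5.69 RPKM to 24.2 and 38.5 RPKM (adjusted p = 0.034). Fkbp10, a chaperone of fibrillar collagen, fell over all culture groups, from 5.05 and 3.70 RPKM in fresh cells to between 0 and 1.33 RPKM in culture (adjusted p = 0.0313). Serpinh1, the collagen chaperone HSP47, was at 38.9 RPKM in both fresh libraries and at 0.237 and 35.3 RPKM in organoids. Plod2, a lysyl hydroxylase, was at 2.05 and 2.10 RPKM and at 7.12 and 2.61 RPKM. Neither of the last 2 passed. The calls not yet named in these lists were those of Ccn2, a matricellular protein, which rose, of Mfge8, which carries an RGD motif, and P4ha3, a prolyl hydroxylase, which fell in organoids, and of P3h2, which fell over all culture groups. They are named after their values were seen.

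Inside the cell, 22 tested activators and focal adhesion proteins had 1 rising and 0 falling in organoids, and 0 of either at 12 h. Tns4, a tensin that binds the tail of beta chains, rose from 0.292 and 0.530 RPKM in fresh cells to 28.2 and 27.7 RPKM in organoids (log2 change 4.36, SE 0.45, limma, adjusted p = 0.00804), and also against 12 h, where it was at 1.82 and 3.28 RPKM (adjusted p = 0.0346). Over all culture groups 1 rose and 3 fell, the latter being Vcl, vinculin, Lims2 and Ptk2b (adjusted p = 0.0428, 0.039 and 0.0461). Fermt1, the epithelial kindlin, was at 33.2 and 45.8 RPKM in fresh cells, 107 and 169 RPKM at 12 h and 17.2 and 52.3 RPKM in organoids, without passing. Ilk was under 1 RPKM in all 8 libraries and was not tested.

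Of 11 tested non-integrin receptors, 1 rose and 0 fell in organoids, and 2 rose and 1 fell at 12 h. Sdc1, an epithelial syndecan, rose from 18.8 and 11.4 RPKM to 48.3 and 64.1 RPKM at 12 h (adjusted p = 0.0413) and 76.7 and 95.0 RPKM in organoids (adjusted p = 0.0167). Bcam, the receptor for the laminin alpha5 chain, fell from 70.9 and 80.9 RPKM to 16.3 and 18.4 RPKM at 12 h (adjusted p = 0.0266) and was at 77.9 and 85.6 RPKM in organoids, a rise against 12 h (adjusted p = 0.0333). Its ligand chain Lama5 did not pass in either step. Sdc3 rose at 12 h, from 0.919 and 1.73 RPKM to 10.8 and 13.4 RPKM (adjusted p = 0.0438). Ddr1, a collagen receptor kinase, and Cd44, the hyaluronan receptor, did not pass, at means of 133 and 65.2 RPKM in fresh cells and 98.7 and 137 RPKM in organoids.

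Reads from overlapping genes could not be separated by strand, since no source used here states whether counting used strand. Exonic overlap with another gene was found for 25 of the 81 chains and 6 of the 24 named by rule. Col9a3 shares 234 bases with Tcfl5, which was at 0.0828 and 0.0222 RPKM in fresh cells and at 0 in culture, and Lamc3 shares 382 bases with Gm13441, which was at 0 in all libraries. Itgav shares 634 bases with Gm13684, at 3.62 and 7.25 RPKM in fresh cells and at most 1.88 RPKM in culture.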

How the data were processed

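The authors deposited 1 table of RPKM values per gene for 8 RNA sequencing libraries. Per the labels' protocols, RNA of sorted cells was amplified by Smart-seq2 and tagmented with Nextera XT, and the submitters' processing notes name GRCm38 and edgeR. No source used here states the aligner, the counter, the annotation, the use of strand or any scaling factor. Effective reads were recovered as RPKM times the exon length of GENCODE M21, and 88.2% to 91.1% of low values then came out whole within 0.01. They were used only to describe depth and floors. Of 47729 identifiers, 47310 matched that annotation.

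Genes at 1 RPKM or more in at least 2 libraries were tested as log2(RPKM + 1) in limma 3.58.1 (R 4.3.3), with 5 group coefficients over 8 libraries (3 residual degrees of freedom) and an intensity trend. P-values were adjusted by Benjamini-Hochberg over 12900 genes, with a threshold of 0.05. The fit was tested on simulated data. A log2(RPKM + 1) change understates that of low genes. Genes named are the chains that passed, the 5 highest of each class in fresh cells and in organoids, up to 4 passing genes per pathway list and 10 set names. Chains outside that rule were picked out after their values were seen. The gene set and the lists (5 of pathways, 7 of cell type markers) were chosen with earlier results of these data known. Alternatives were a pseudocount of 0.1, other filters and scalings, fewer libraries and a replicate block. The values of 1 gene are not reported here, and counts include it.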

Additional observations from a re-analysis of the deposited data

How the results depend on the processing

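With 2 libraries a group and 3 residual degrees of freedom, the counts of chains called rest on few libraries, and levels under the worth of 3 reads cannot be told from 0. The counts below stand without the share of all genes passing in the same setting, so they are no result about the chains. The count over all culture groups against fresh cells was 4, and 7 with median centring or quantile normalization. Median centring also raised the number of falling genes in the whole table, as given above. The count at 12 h was 3, with 1 when a mean of 5 RPKM was required and 6 in a fit of only the groups compared. The count in organoids against fresh cells was 5, with 3 when no filter was used and 3 when a mean of 5 RPKM was required. Leaving out each replicate in turn gave 0 to 7 over all culture groups, 0 to 5 at 12 h, 0 to 6 in organoids and 0 in organoids against 12 h. No log2 change of a named chain that had passed reversed its sign in any alternative. Same-numbered replicates deviated from their group means with correlations of 0.19, 0.22 and 0.02, and with 2 numbers they share only a number. With a replicate block the counts were 3 at 12 h, 4 in organoids and 0 between organoids and 12 h. For all culture groups no such fit was made, since the 24 h library and the library titled 48h carry no number.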
